A study of Mus musculus with 6 samples.

Results

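7 genes of arginine uptake and use were followed across 6 single-cell RNA sequencing (scRNA-seq) matrices of mouse cells. They were chosen by name out of the 31063 genes that the matrices share, and all 7 were detected in every library. Slc7a1 and Slc7a2 encode cationic amino acid transporters that carry arginine into the cell. Ass1 encodes argininosuccinate synthase, Arg1 and Arg2 the cytosolic and the mitochondrial arginase, Nos2 the inducible nitric oxide synthase, and Odc1 ornithine decarboxylase, which makes the polyamine putrescine.

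Arginine is a branch point in myeloid cells. Arginases split it into urea and ornithine, and ornithine feeds polyamine and proline synthesis, whereas NOS2 turns arginine into nitric oxide and citrulline, from which ASS1 begins to rebuild arginine. In healing skin, arginase 1 is a textbook product of alternatively activated macrophages and NOS2 of inflammatory macrophages, while arginase 2 is carried by other cells as well.

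The culture libraries held dendritic cells (DCs) grown from wild-type C57BL/6J bone marrow with GM-CSF. They were untreated DCs, DCs given 1e-06 M vitamin D3 for 24 h from day 7 (VD3 stimulated DCs), and Ndrg2-KO DCs, edited by nucleofection of Cas9 with 3 guides against Ndrg2. The wound libraries held cells of splinted skin wounds of 6-week-old wild-type mice, explanted on day 10 and pooled from 5 mice per group. The wounds had received hydrogels seeded with control DCs, hydrogels seeded with Ndrg2-KO DCs, or blank hydrogels. The labels call the control DCs of the wounds untreated, whereas the methods of the study describe nucleofection with 3 non-targeting guides. Untreated DCs in culture were not nucleofected, so that effects of the edit and of nucleofection cannot be told apart there. Nothing in the matrices marks the seeded DCs among the wound cells.

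Each condition was 1 library, so no spread between cultures or between wounds was measured, and no difference was tested. Levels are given as CPM, the unique molecular identifiers (UMIs) of a gene in every 1000000 UMIs summed over the kept cells, and differences as log2 ratios of CPM. Unless named, values of cultures are listed as untreated, then VD3 stimulated, then Ndrg2-KO, and values of wounds as control DCs, then Ndrg2-KO DCs, then blank hydrogels. All 95% intervals cover counting error only. Differences of at least 2-fold are called higher or lower, and each count of such members is set beside the share of all genes with at least 50 UMIs that passed the same fold.

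Kept cells ranged from 1948 in wounds with control DCs to 8825 in VD3 stimulated DCs, and the median depth from 4415 to 16316 UMIs per cell. The targeted gene Ndrg2 stood at 4.62, 1.42 and 0.884 CPM in the cultures, lowest after the knockout, and at 6.10, 3.33 and 3.29 CPM in the wounds. Markers of mature DCs were present in all 3 cultures, with at least 7 of 8 at 50 CPM or more. Cultured cells clustered mostly by library, and 3660 of the 3663 cells of the largest cluster came from Ndrg2-KO DCs. A cluster of this kind may be the library and not a cell type. Libraries shared at most 19 barcodes in any pair.

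The members lie on 6 chromosomes of GRCm38. Slc7a1 occupies chr5:148327410-148399904 on the minus strand, with 14 exonic regions. Slc7a2 lies at chr8:40862396-40922308 with 15 exonic regions, Ass1 at chr2:31470207-31520672 with 16, Nos2 at chr11:78920787-78960254 with 29, and Odc1 at chr12:17544794-17551505 with 7, all on the plus strand. Arg1 lies at chr10:24915221-24927484 on the minus strand with 7 exonic regions, and Arg2 at chr12:79130777-79156301 on the plus strand with 8. Shared sequence makes the Ass1 and Odc1 counts uncertain. Of the read-length words at the 3' ends of their transcripts, 23.3% and 14.2% also occur in other annotated genes (Gm5424 for Ass1, 10 genes for Odc1). Arg2 and Slc7a2 overlap genes of the opposite strand.

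Slc7a1 and Odc1 were the members whose level in Ndrg2-KO DCs lay more than 2-fold under that in untreated DCs, and their start regions, from RefSeq on GRCm38.p6, are shown for this reason, 5' to 3' on the strand of the gene. Capitals mark the GC box GGGCGG or its reverse complement CCGCCC. The Slc7a1 region is chr5:148399905-148400154 (minus strand, 250 bases) and the Odc1 region chr12:17544623-17544793 (plus strand, 171 bases).
Slc7a1: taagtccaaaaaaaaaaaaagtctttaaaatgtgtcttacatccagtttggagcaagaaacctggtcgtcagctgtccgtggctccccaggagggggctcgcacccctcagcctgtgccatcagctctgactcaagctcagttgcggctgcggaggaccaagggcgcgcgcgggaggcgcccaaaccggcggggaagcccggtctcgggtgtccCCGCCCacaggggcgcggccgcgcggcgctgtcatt
Odc1: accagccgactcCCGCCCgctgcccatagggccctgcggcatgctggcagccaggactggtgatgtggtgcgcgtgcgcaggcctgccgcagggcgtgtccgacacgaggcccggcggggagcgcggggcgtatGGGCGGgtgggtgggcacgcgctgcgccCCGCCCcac
The Slc7a1 region held 1 GC box match at 62.4% GC and the Odc1 region 3 matches at 77.2% GC. Neither held the E-box CACGTG or the TATA box TATAAA on either strand. The Odc1 and Slc7a1 counts cover the printed bases, and the whole 250 bases before the Odc1 start held 4 GC box matches. Over all 32851 promoters, 32.7% held a GC box, 6.02% the E-box and 12.4% the TATA box in 250 bases. Such matches describe the letters of the window and are not evidence of binding.

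Arg1 had the largest ratio of all members between Ndrg2-KO DCs and each of the other cultures. Its level was 5.02 CPM (666 UMIs) in untreated DCs, 1.58 CPM (184 UMIs) in VD3 stimulated DCs and 760 CPM (109113 UMIs) in Ndrg2-KO DCs. The Ndrg2-KO level was 151-fold the untreated level (log2 ratio 7.24, 95% interval 7.13 to 7.35) and 481-fold the VD3 level (8.91). Arg1 was also unevenly spread among Ndrg2-KO cells, as the 797 cells with most Arg1 held 58.7% of its UMIs and a single cell held up to 256. When 2000 UMIs were drawn from each cell, 35.1% of Ndrg2-KO cells showed at least 1 Arg1 UMI, against 0.634% of untreated and 0.143% of VD3 stimulated cells.

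The other arginase gene, Arg2, did not share this pattern. It stood at 4.91, 13 and 3.53 CPM, highest in the VD3 library. The log2 ratio was 1.41 (1.27 to 1.54) for VD3 stimulated and -0.48 (-0.65 to -0.31) for Ndrg2-KO against untreated DCs. With each cell given equal weight these ratios became 0.39 and -1.96. In untreated and VD3 stimulated DCs, neutrophil-like cells held 50.5% and 23.4% of all Arg2 UMIs at 70.1 and 83.5 CPM. Such cells made up 12.6% and 12.4% of these libraries and 0.289% of Ndrg2-KO DCs. In VD3 stimulated DCs a larger part, 48.6% of Arg2 UMIs at 18.9 CPM, lay in cluster 4, led by Cyp24a1 and Gdf15. Cluster 10 held a further 16.3% at 14.6 CPM. The summed level of the 8 neutrophil markers, none of which was at 0, was 5135, 5994 and 395 CPM in the cultures. In the cells other than neutrophil-like the Arg2 ratio was 2.04 (1.86 to 2.22) for VD3 stimulated and 0.47 (0.26 to 0.67) for Ndrg2-KO against untreated DCs, so that the direction of the latter turned.

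The 2 transporter genes moved apart. Slc7a2 was at 49.9 CPM in untreated DCs, 4.47 CPM in VD3 stimulated DCs and 119 CPM in Ndrg2-KO DCs. Slc7a1 was at 22.5, 11.3 and 7.80 CPM in the same order. Slc7a2 was therefore highest and Slc7a1 lowest in the Ndrg2-KO library, although below 5% mitochondrial UMIs the Slc7a1 ratio of Ndrg2-KO to VD3 stimulated DCs turned from -0.53 to 0.28. Against untreated DCs, Slc7a2 was higher in Ndrg2-KO DCs (1.25, 1.21 to 1.29) and lower in VD3 stimulated DCs (-3.48, -3.61 to -3.35). Slc7a1 was lower in Ndrg2-KO DCs (-1.53, -1.63 to -1.43), and its ratio in VD3 stimulated DCs lay just inside the limit (95% interval -1.09 to -0.90). When only cells with under 5% mitochondrial UMIs were kept, the latter passed it at -1.52. Cluster 6 held 66.9% of the Slc7a1 UMIs of untreated DCs, at 35.0 CPM in 1766 cells. In Ndrg2-KO DCs it had 136 cells at 24.1 CPM, and in VD3 stimulated DCs 40 cells at 32.8 CPM. The part of this cluster in the Slc7a1 differences was not tested.

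Ass1, the gene of arginine resynthesis, was lowest in VD3 stimulated DCs. It stood at 395, 139 and 323 CPM, and 45.8%, 22.4% and 41.7% of cells showed it among 2000 drawn UMIs. Ass1 was lower in VD3 stimulated than in untreated DCs (-1.51, -1.53 to -1.48). The Ndrg2-KO and untreated levels differed by less than 2-fold (-0.29, -0.31 to -0.27).

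Odc1, at the entry of polyamine synthesis, was highest in untreated DCs at 126 CPM, followed by 83.0 CPM with VD3 and 61.0 CPM with the knockout. Against untreated DCs its ratio was -1.04 (-1.08 to -1.01) in Ndrg2-KO and -0.60 (-0.64 to -0.56) in VD3 stimulated DCs. The Ndrg2-KO value lay close to the limit and no longer passed it under 3 alternatives, at -0.97 with median-ratio size factors, -0.92 with equal weight per cell and -0.88 below 5% mitochondrial UMIs. Cluster 6 of the cultures, where Odc1 was high in each library, held 1766 untreated, 40 VD3 stimulated and 136 Ndrg2-KO cells. Its part in the Odc1 differences was not tested.

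Nos2 was near the detection floor in culture. There were 10 Nos2 UMIs in 4 cells of untreated DCs (0.0754 CPM, 0.0362 to 0.139), 10 in 2 cells of VD3 stimulated DCs (0.0859 CPM) and 248 in 74 cells of Ndrg2-KO DCs (1.73 CPM). The Ndrg2-KO level was higher than the untreated level (4.52, 3.61 to 5.59) but remained rare, since 0.217% of its cells showed Nos2 among 2000 drawn UMIs. In the untreated and VD3 libraries 0 of 6785 and 0 of 7676 cells did. These intervals take UMIs as independent, although few cells held them. Below 5% mitochondrial UMIs the ratio was 8.04 (5.54 to 13.4), outside 3.61 to 5.59, as 1 Nos2 UMI was left in untreated DCs.

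Counted together, 3 of 7 members (Arg1, Nos2, Slc7a2) were higher and 2 (Slc7a1, Odc1) lower in Ndrg2-KO DCs relative to untreated DCs. Over all 13329 genes tested, 10.2% were higher and 9.28% lower (19.5% in either direction). The median ratio was -0.29 over the members and -0.06 over all genes. In VD3 stimulated against untreated DCs, 1 of the 6 members with enough UMIs was higher (Arg2) and 3 were lower (Slc7a2, Arg1, Ass1), where 4.18% of all genes were higher and 7.44% lower (11.6% in either direction). In Ndrg2-KO against VD3 stimulated DCs, 4 of 7 members were higher (Arg1, Slc7a2, Nos2, Ass1) and 1 was lower (Arg2), against 13% and 9.21% of all genes (22.2% in either direction). These comparisons share libraries in pairs, the first and second both using untreated DCs.

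**Figure D1:**
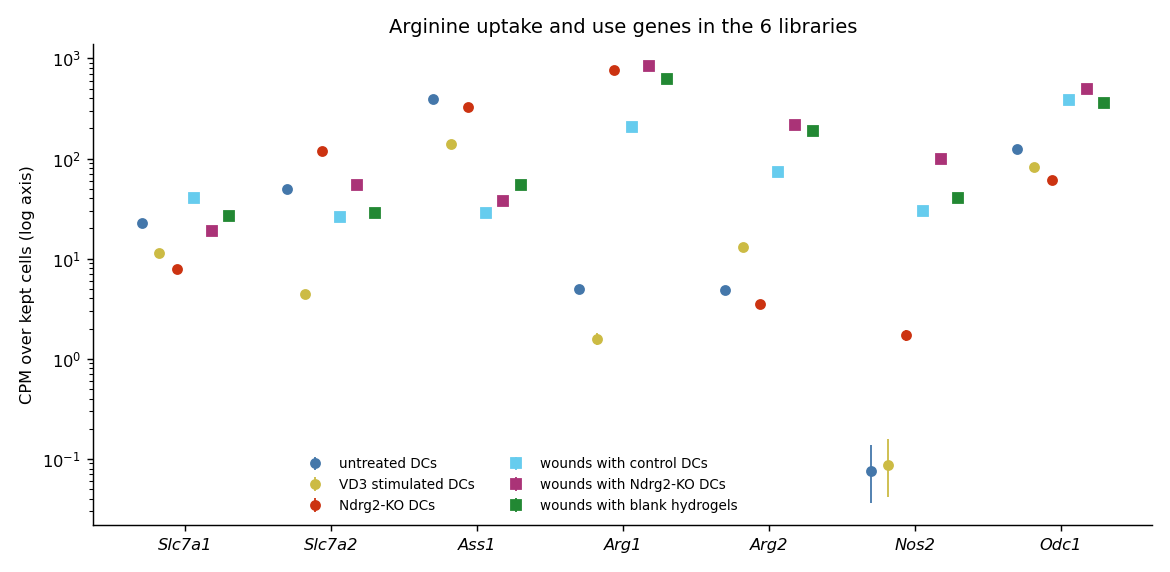
Level of each member in the 6 libraries, in CPM over kept cells on a log axis, with 95% Poisson intervals, which are narrower than the symbols where not visible. Arg1 stands at 760 CPM in Ndrg2-KO DCs and at 5.02 and 1.58 CPM in the other cultures, while Arg2, Nos2 and Odc1 are higher in each wound library than in each culture.

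The plot of levels by library also shows the difference between settings. Arg2, Nos2 and Odc1 lay higher in each of the 3 wound libraries than in any culture, and Ass1 lower. Culture and wound cells differed in tissue, dissociation and Cell Ranger version (3.1.0 and 6.0.0), which cannot be told apart.

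Other genes of arginine and polyamine metabolism are given by counts. Of 49 listed genes, 41 had enough UMIs in Ndrg2-KO against untreated DCs. Of these 5 were higher and 4 lower, close to the 10.2% and 9.28% of all genes, and their median ratio was -0.12. The 3 largest ratios belonged to Nags, which makes the activator of the urea cycle (3.39, 12.3 against 1.18 CPM), the creatine transporter gene Slc6a8 (2.68, 37.0 against 5.76 CPM) and the proline synthesis gene Pycr1 (-2.34, 0.0627 against 0.317 CPM). Of the 7 genes leading from ornithine to proline and glutamate 3 were lower and none higher, and of 3 measured creatine and agmatine genes 2 were higher. Among 6 polyamine synthesis genes only the spermidine synthase gene Srm passed the limit (-1.57, 21.2 against 63.0 CPM). None of 5 transport genes and none of 4 antizyme genes passed 2-fold.

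In VD3 stimulated against untreated DCs 2 of 41 pathway genes were higher and 3 lower, close to the 4.18% and 7.44% of all genes. The spermine oxidase gene Smox led (2.41, 80.5 against 15.2 CPM), followed by Nags (-1.48, 0.421 against 1.18 CPM) and Pycr1 (-1.30, 0.129 against 0.317 CPM). In Ndrg2-KO against VD3 stimulated DCs 7 of 40 were higher and 3 lower (13% and 9.21% of all genes), led by Nags (4.87), Slc6a8 (3.44, 37.0 against 3.40 CPM) and Gatm, which uses arginine for creatine synthesis (2.45, 96.1 against 17.5 CPM). All 3 measured creatine and agmatine genes were higher there.

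Within the cultures, Arg1 and Slc7a2 were read from the same clusters of Ndrg2-KO cells. Cluster 0 passed 5 of 8 premature DC markers (Csf1r, Ccr2, Lyz2, Fn1 and Mmp12) and also 5 of 10 macrophage markers, with Fabp4, Mmp13, Apoe and Igf1 among its leading genes, so that its name as premature DC-like is uncertain. It held 74.3% of the Arg1 UMIs of the Ndrg2-KO library at 1085 CPM, and 51.9% of its cells showed Arg1 among 2000 drawn UMIs. The proliferating cluster 9 stood at 676 CPM and cluster 12, with Apoe and Vegfa among its leading genes, at 713 CPM. The 156 Ndrg2-KO cells of the shallow proliferating cluster 3 (median 2036 UMIs over all cultures) stood at 885 CPM. Slc7a2 was at 160 CPM in cluster 0, 111 CPM in cluster 9 and 106 CPM in cluster 12. Arg1 in the Ndrg2-KO library thus extended over several clusters, and no cluster of untreated or VD3 stimulated cells in the plot of culture clusters exceeded 11.7 CPM.

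**Figure D2:**
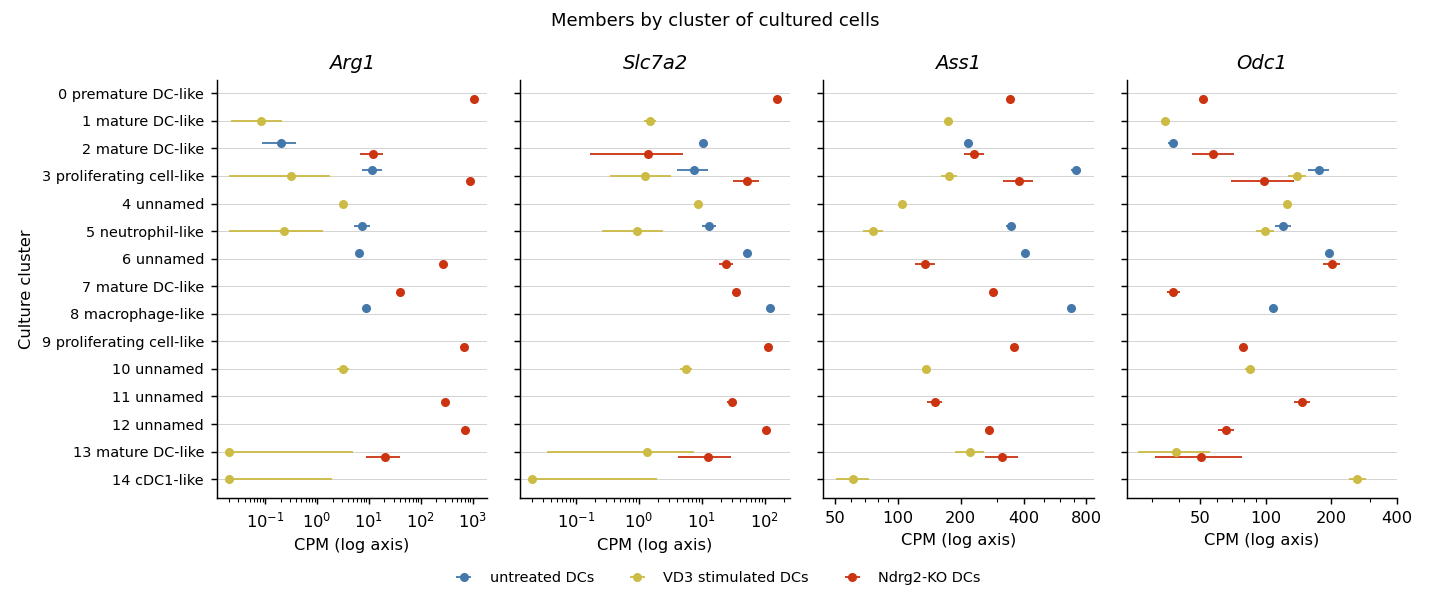
Arg1, Slc7a2, Ass1 and Odc1 by cluster of cultured cells and by library, in CPM on log axes with 95% Poisson intervals, for cluster and library pairs of at least 100 cells; points at the left edge had 0 UMIs. Arg1 reaches 1085 CPM in Ndrg2-KO cells of cluster 0, and Slc7a2 is high in Ndrg2-KO cluster 0 (160 CPM) and in untreated cluster 8 (123 CPM).

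Slc7a2 had a second place of high level, with far less Arg1 than cluster 0. Untreated cells of cluster 8, led by Plet1 and Mgl2 and named macrophage-like by 3 of 10 markers, stood at 123 CPM of Slc7a2, with 20.0% of cells showing it, but at 8.98 CPM of Arg1, which was above the 5.02 CPM of their library and made up 33.6% of its Arg1 UMIs. The same cells held 677 CPM of Ass1. In VD3 stimulated DCs no cluster in the plot exceeded 8.70 CPM of Slc7a2.

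Mature DC-like cells gave a comparison across all 3 cultures, although mostly different clusters hold them, cluster 2 in untreated, cluster 1 in VD3 stimulated and cluster 7 in Ndrg2-KO DCs. Arg1 was at 0.192, 0.0801 and 38.5 CPM there, with 8, 4 and 983 UMIs. The Ndrg2-KO ratio against untreated cells was 7.64 (6.66 to 8.86), as large as over the whole library, at a level far under the 1085 CPM of cluster 0. Mature DCs are not known for arginase 1, and 4.03% of the Ndrg2-KO ones showed an Arg1 UMI at a median depth of 10690 UMIs, against 51.9% in cluster 0. The part of free RNA in this share was not tested.

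Odc1 behaved otherwise in mature DC-like cells. It stood at 38.0, 34.8 and 39.2 CPM, a ratio of 0.04 (-0.07 to 0.16) for Ndrg2-KO against untreated. The high Odc1 levels of culture lay elsewhere. Among groups of at least 20 cells the highest was cluster 5, neutrophil-like, at 334 CPM in 23 Ndrg2-KO cells. High levels were also found in cluster 14, cDC1-like, at 263 CPM in 146 VD3 stimulated cells and 190 CPM in 75 untreated cells. Cluster 6, with Prg2, Ms4a3 and Elane among its leading genes, stood at 196, 175 and 201 CPM, of which the second rests on 40 cells. VD3 stimulated cells of cluster 15 (185 CPM) and untreated cells of cluster 3 (175 CPM) were in the same range. Ass1 in mature DC-like cells was at 216, 174 and 284 CPM, so that its lowest level was again in the VD3 library, with ratios under 2-fold. Slc7a2 in these cells kept its order at 10.5, 1.5 and 33.3 CPM.

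Arg1-rich cells were defined by at least 4 Arg1 UMIs among 2000 drawn from the cell. They made up 1090 of 7835 Ndrg2-KO cells (13.9%, Clopper-Pearson interval 13.2 to 14.7%), 2 of 6785 untreated cells and 1 of 7676 VD3 stimulated cells. A further 21.2% of Ndrg2-KO cells had 1 to 3 drawn UMIs, and 348 cells with 3 and 287 cells with 4 lay on either side of the limit. Of the Arg1-rich cells, 864 (79.3%) lay in cluster 0. In cluster 7 of mature DC-like cells the Arg1-rich share was 0.383%.

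**Figure D3:**
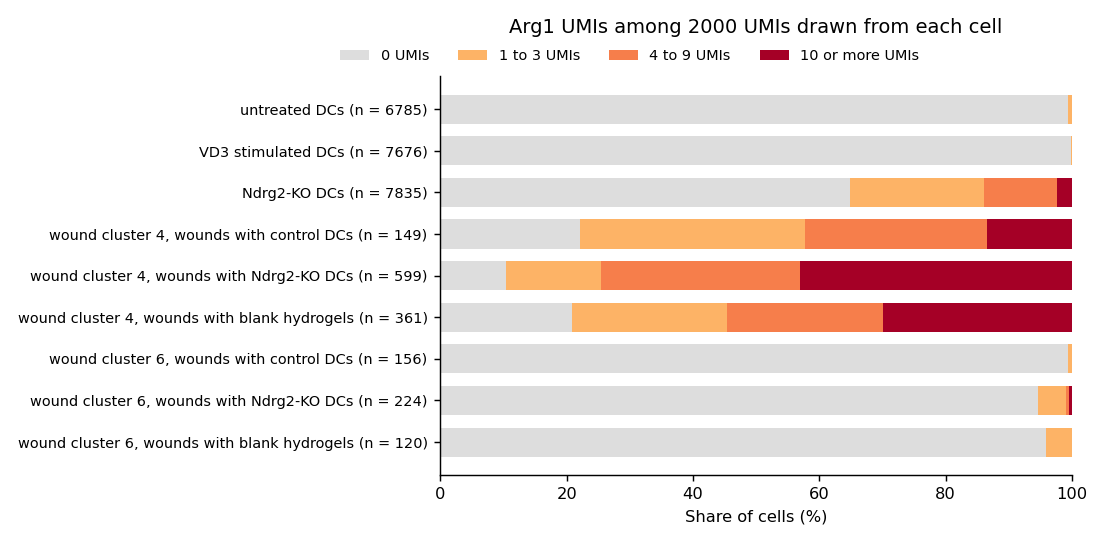
Share of cells by the number of Arg1 UMIs among 2000 drawn UMIs, for each culture and for the 2 macrophage-like wound clusters in each wound library, with the number of cells drawn. At least 4 UMIs were found in 13.9% of Ndrg2-KO DCs and in 42.3%, 74.6% and 54.6% of wound cluster 4, but in 0.4% of wound cluster 6.

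In the wounds, Arg1 was at 206 CPM with control DCs, 834 CPM with Ndrg2-KO DCs and 630 CPM with blank hydrogels. Arg2 was at 73.6, 215 and 187 CPM in the same order. Both arginase genes were thus lowest in wounds with control DCs, while the other 2 groups lay close to each other. Against wounds with control DCs, the ratios in wounds with Ndrg2-KO DCs were 2.02 (1.98 to 2.06) for Arg1 and 1.55 (1.48 to 1.62) for Arg2, and those with blank hydrogels 1.61 and 1.35. With equal weight per cell the Arg2 ratios were 0.99 and 0.87, inside the limit. Between Ndrg2-KO DCs and blank hydrogels they were 0.41 and 0.20.

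Nos2 set wounds with Ndrg2-KO DCs apart from both others. Its level was 30.2 CPM with control DCs, 98.4 CPM with Ndrg2-KO DCs and 40.4 CPM with blank hydrogels. The ratio for Ndrg2-KO DCs was 1.70 (1.60 to 1.81) against control DCs and 1.28 against blank hydrogels. Slc7a2 showed the same order, at 25.9, 54.8 and 28.5 CPM, with ratios of 1.08 (0.96 to 1.19) and 0.94. With equal weight per cell the Slc7a2 ratio against control DCs was 0.63, inside the limit, that against blank hydrogels was 1.08, past it, and that of blank hydrogels to control DCs turned from 0.13 to -0.46.

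Slc7a1 went the other way. It stood at 40.6 CPM in wounds with control DCs, 18.7 CPM with Ndrg2-KO DCs and 26.8 CPM with blank hydrogels, a ratio of -1.12 (-1.24 to -0.99) for Ndrg2-KO against control DCs, or -0.98 with median-ratio size factors. Ass1 was at 28.6, 37.7 and 54.6 CPM and Odc1 at 386, 496 and 362 CPM, and neither differed by 2-fold between any pair of wound libraries, although Ass1 with blank hydrogels against control DCs passed it over all deposited barcodes (1.12) and without the highest doublet scores (1.05).

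Of 7 members, 4 were higher (Arg1, Nos2, Arg2, Slc7a2) and 1 lower (Slc7a1) in wounds with Ndrg2-KO than with control DCs, against 4.39% and 6.22% of all genes (10.6% in either direction). With blank hydrogels against control DCs 2 were higher (Arg1, Arg2) and none lower, against 3.71% and 3.89% of all genes (7.6% in either direction). With Ndrg2-KO DCs against blank hydrogels only Nos2 was higher and none lower, against 1.75% and 2.01% of all genes (3.76% in either direction). The first 2 comparisons share the wounds with control DCs. Of 41 other pathway genes, 2 were higher with Ndrg2-KO than with control DCs, namely Smox (1.41, 268 against 101 CPM) and the biopterin synthesis gene Pts (1.35, 60.7 against 23.8 CPM), and Nos3, the endothelial synthase gene, was lower (-1.15, 1.04 against 2.29 CPM). No pathway gene passed 2-fold in the other 2 wound comparisons.

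The wound libraries also differed in their cells. Neutrophil-like cells made up 23.7%, 51.3% and 46.1% of cells, and fibroblast-like cells 25.1%, 8.94% and 10.2% of cells, but 52.7%, 29.7% and 31.4% of UMIs. In such sums, fewer cells of a type and less RNA per cell cannot be told apart, and the members were therefore also read by cell class.

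For Arg2, the class that held most of it had nearly the same level in the 3 libraries. Neutrophil-like cells carried 52.1%, 63.4% and 61.6% of Arg2 UMIs at 679, 676 and 677 CPM, and 65.2%, 67.0% and 67.1% of them showed Arg2 among 2000 drawn UMIs. The ratio of Ndrg2-KO to control DCs in this class was -0.01 (-0.10 to 0.08), against 1.55 in the whole library. In the macrophage-like cells of cluster 4, Arg2 was at 161, 256 and 196 CPM, and in cells other than neutrophil-like the ratio was 1.40. For comparison, Arg2 was at 1.34, 9.37 and 6.58 CPM in fibroblast-like cells, with shares of 0.412%, 1.38% and 1.44% at median depths of 27043.5 to 30243 UMIs, and at 0, 30.6 and 10.5 CPM in T cell-like cells.

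For Arg1, the difference was also present within clusters 4 and 1, although not past 2-fold in the macrophage-like cells of a finer clustering (0.49 at resolution 1). Cluster 4, macrophage-like by markers such as Cd68 and Ms4a7 and led by Mmp12 and Mmp13, held 72.7%, 79.9% and 80.2% of the Arg1 UMIs at 2001, 4608 and 3277 CPM. The ratio of Ndrg2-KO to control DCs was 1.20 in this cluster and 1.03 in cluster 1, which is led by Ccr2 and MHC class II genes, passed 10 of 10 macrophage and 3 monocyte markers but has no name here because of its leading genes, and stood at 348, 710 and 534 CPM. The other macrophage-like cluster, 6, with Cd209 family genes and Lyve1, held almost no Arg1, at 3.1, 50.7 and 13.6 CPM. T cell-like cells stood at 15.2, 334 and 82.5 CPM, with shares of 0.769%, 4.29% and 3.03% at median depths of 6329, 5072 and 6140.5 UMIs. The 334 CPM came from few cells, as 10 of 233 drawn cells showed Arg1. Fibroblast-like cells stood at 1.41, 43.7 and 13 CPM of Arg1, so that cluster 6 lay below the former class and slightly above the latter.

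**Figure D4:**
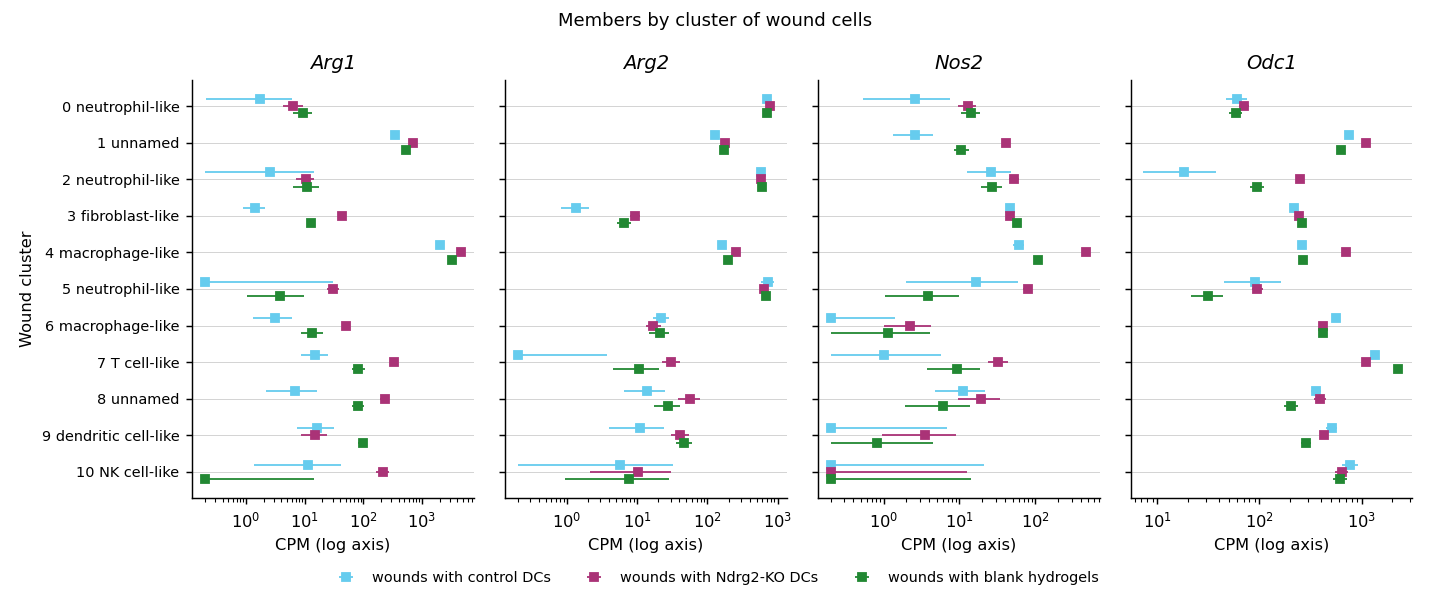
Arg1, Arg2, Nos2 and Odc1 by cluster of wound cells and by library, in CPM on log axes with 95% Poisson intervals; points at the left edge had 0 UMIs. Arg2 of the neutrophil-like clusters 0, 2 and 5 lies between 575 and 778 CPM in all 3 libraries, whereas Nos2 of cluster 4 is 460 CPM with Ndrg2-KO DCs against 60.3 and 107 CPM.

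Nos2 came from different cells in different wounds. In wounds with control DCs, fibroblast-like cells held 80.2% of Nos2 UMIs and cluster 4 held 15.0%. In wounds with Ndrg2-KO DCs cluster 4 held 67.7% and fibroblast-like cells 14.1%, and with blank hydrogels the shares were 40.9% and 44.9%. Fibroblast-like cells had similar Nos2 levels in all 3 libraries, at 46.0, 46.6 and 57.8 CPM, with a ratio of 0.02 (-0.13 to 0.17) for Ndrg2-KO against control DCs. Cluster 4 was at 60.3, 460 and 107 CPM, with 6.04%, 36.4% and 9.70% of cells showing Nos2, a ratio of 2.93 against control DCs and 2.10 against blank hydrogels. NK cell-like cells had 0 Nos2 UMIs in each wound library, and T cell-like cells 1.02, 32.6 and 9.17 CPM.

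How macrophage-like cells were delimited decided the size of these values. Over both macrophage-like clusters the ratio of Ndrg2-KO to control DCs was 1.67 for Arg1 and 3.40 for Nos2. At clustering resolution 1 in place of 0.5, an alternative chosen after seeing the data, the class was made of clusters of 977 and 949 cells, a separate cluster led by Mmp13 and Mmp12 (13, 425 and 81 cells of the 3 libraries) was not named, and the ratios in the class were 0.49 and 0.23. The class at resolution 1 thus held more cells than the main one, whose clusters 4 and 6 had 1145 and 501.

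Slc7a2 followed Arg1 into cluster 4, which held 59.5%, 78.6% and 62.5% of its UMIs at 206, 297 and 115 CPM. The ratio of Ndrg2-KO to control DCs was 0.53 there, smaller than the 1.08 of the whole library. Slc7a1 was instead read mostly from fibroblast-like cells, with 80.8%, 65.4% and 66.8% of its UMIs at 62.2, 41.2 and 57.1 CPM. Within them its ratio was -0.59, and -0.84 in the cells other than fibroblast-like, both under 2-fold. The summed level of the 7 fibroblast markers, none of which was at 0, was 50484, 22359 and 22709 CPM in the 3 wound libraries, and its part in the Slc7a1 difference was not tested.

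Odc1 and Ass1 had other places again. Odc1 was high in T cell-like cells, at 1359, 1095 and 2251 CPM, and in cluster 1, at 753, 1097 and 630 CPM. In cluster 4 it was at 259, 700 and 266 CPM, a ratio of 1.43 for Ndrg2-KO against control DCs. Ass1 was highest in dendritic cell-like cells at 138, 187 and 147 CPM, with 72.9, 99 and 101 CPM in cluster 4 and at most 0.840 CPM in neutrophil-like cells. Fibroblast-like cells held 21.4, 14.7 and 50.3 CPM of Ass1.

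Among macrophage-like wound cells, 709 of 1609 drawn cells were Arg1-rich (44.1%, 41.6 to 46.5%). The share was 20.7% (63 of 305) with control DCs, 54.6% (449 of 823) with Ndrg2-KO DCs and 41.0% (197 of 481) with blank hydrogels. Cluster 4 held 707 of the 709 cells. Counting cluster 1 as macrophage-like, chosen after seeing the data, gave 25.8%, and resolution 1 gave 19.2%.

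Arg1-rich cells of the 2 settings shared high Arg1 by choice and differed in what went with it. Arg1, which chose the cells, stood at 2794 CPM in Arg1-rich Ndrg2-KO DCs and at 4091, 6066 and 5391 CPM in Arg1-rich macrophage-like cells of the 3 wound libraries. Of the 6 other members 1 was higher (Ass1) and 3 were lower (Nos2, Arg2, Odc1) in the Ndrg2-KO cells, each the same way against each wound library. Over all 10716 genes tested, 28.2% were higher and 13.1% lower (41.3% in either direction), with a median ratio of 0.35 against -2.09 for the 6 members.

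Nos2 and Arg2 differed most, Nos2 more against the pool and wounds with Ndrg2-KO DCs, Arg2 more against control DCs (-5.37, with -4.38 for Nos2) and blank hydrogels (-5.57, with -5.08). Nos2 was at 5.32 CPM (4.43 to 6.34) in the Arg1-rich Ndrg2-KO cells and at 111, 587 and 181 CPM in those of the 3 wound libraries, 408 CPM when pooled (ratio -6.26, -6.53 to -6.00). At resolution 1 the pooled ratio was -3.76 for Nos2 and -5.33 for Arg2, and at a limit of 10 Arg1 UMIs -4.24 and -5.01. Arg2 was at 5.41 CPM against 223, 294 and 256 CPM (-5.67, -5.93 to -5.41). Odc1 was at 43.8 CPM against 284, 721 and 273 CPM (-3.60, -3.70 to -3.50). For all 3 genes the lowest wound library lay far above the cultured cells.

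Ass1 was the exception, at 333 CPM in the Arg1-rich Ndrg2-KO cells against 85.3, 116 and 116 CPM in the wounds (1.55, 1.46 to 1.65). The transporter genes came closest. Slc7a2 was at 198 CPM against 309, 367 and 175 CPM (-0.59, -0.66 to -0.52), with a ratio of 0.18 against the wounds with blank hydrogels alone and 0.40 at resolution 1, so that its direction was not stable. Slc7a1 was at 6.80 CPM against 8.41, 9.54 and 7.74 CPM (-0.38, -0.77 to 0.03).

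**Figure D5:**
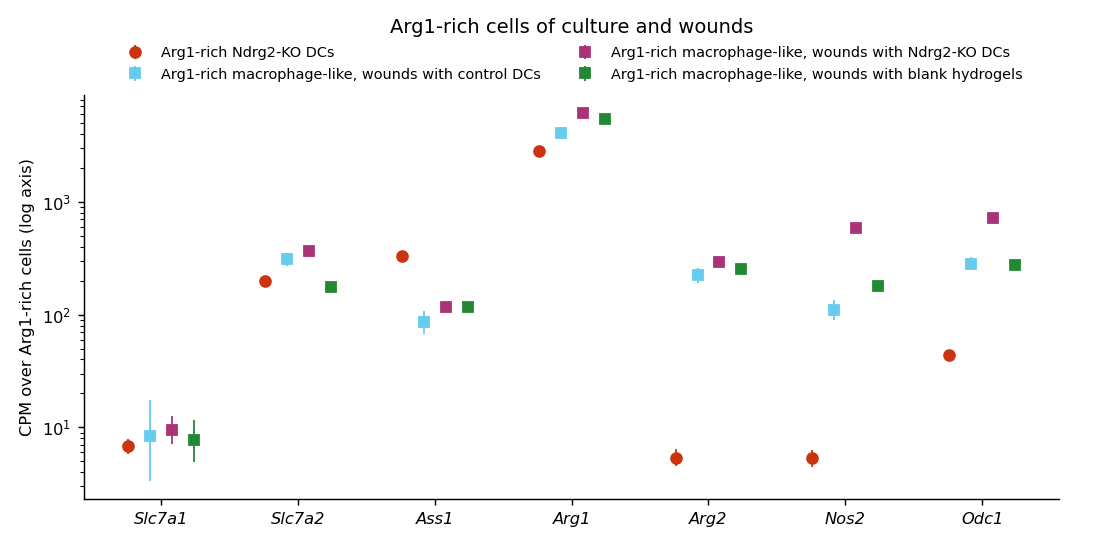
Level of each member in Arg1-rich Ndrg2-KO DCs and in Arg1-rich macrophage-like cells of each wound library, in CPM on a log axis with 95% Poisson intervals. Nos2, Arg2 and Odc1 lie at 5.32, 5.41 and 43.8 CPM in the cultured cells and at 111, 223 and 273 CPM or more in the wounds, Ass1 lies higher in the cultured cells, and the Slc7a1 intervals overlap.

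Other cells could contribute to these values. The 8 neutrophil markers summed to 87.4 CPM in Arg1-rich Ndrg2-KO cells, with none at 0, and to 387, 3444 and 1229 CPM in the Arg1-rich wound cells, with 2, 0 and 0 at 0. The 6 erythroid markers summed to 0.0422 CPM, with 5 at 0, and to 866, 2042 and 2915 CPM, with 2, 0 and 0 at 0. Their part in the Arg2 and Nos2 differences was not tested. Median depth was 20220 UMIs in the cultured and 11629 UMIs in the wound cells, and the median mitochondrial share 6.25% and 1.73%.

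The Arg1-rich cells also differed in identity genes. The 10 macrophage markers were all at 50 CPM or more in the wound cells and 8 were in the Ndrg2-KO cells, with sums of 14079, 5597 and 10341 CPM against 2796 CPM. DC markers summed to 131 CPM in the Ndrg2-KO cells, of which the chemokine gene Ccl22 gave 74.6 CPM, and to at most 3.31 CPM in the wound cells, with 6, 2 and 3 of 8 at 0. Premature DC markers were high in both, with a sum of 40463 CPM in the Ndrg2-KO cells (6 of 8 at 50 CPM or more) and of 15337, 15292 and 11858 CPM in the wound cells (5 of 8 in each).

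Inflammatory genes went with the wound cells. Against the pooled wound cells, to which wounds with Ndrg2-KO DCs gave 449 of 709 cells, all 9 measured inflammatory cytokine genes were lower in Arg1-rich Ndrg2-KO cells, with a median ratio of -7.52, among them Il1b (20.7 against 3779 CPM), Cxcl1 (0.253 against 2585 CPM) and Ptgs2, the inducible cyclooxygenase gene (0.296 against 2931 CPM). Of these 9, 8 passed the limit the same way against each wound library, the exception being Ccl4, at 70.0 CPM against 64.9 CPM with control DCs. Of 10 immediate early and heat shock genes 9 were lower (8 against each library) and of 12 hypoxia and glycolysis genes 8 were lower (8), with no gene of either list higher. Of 10 lipid-associated macrophage genes 7 were higher and 1 lower, 4 of them the same way against each library, and of 7 MHC class II genes 4 were higher, 2 of them against each library, where 28.2% of all genes were higher and 13.1% lower. Of 8 macrophage matrix genes 4 were lower, among them the thrombospondin gene Thbs1 (535 against 2668 CPM), and of 10 macrophage core genes 6 were lower, with none higher in either list (3 and 5 against each library). Of 10 alternative activation genes 2 were higher and 5 lower against the pool, but only 3 of these 7 went the same way against each library. Among them Ccl24 was at 30.2 CPM against 12.0, 326 and 5.05 CPM. Retnla, a resistin-like gene of alternative activation, was at 5.15 against 0.671 CPM, and the mannose receptor gene Mrc1 at 115 against 323 CPM.

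The 10 genes with the highest ratio over all genes included the DC chemokine gene Ccl17 (236 CPM against 0 UMIs, at least 703-fold with the wound count set at 3) and the eosinophil-associated ribonuclease gene Ear2 (211 against 0.447 CPM, 471-fold). The others were Mgll, Clec4b1, Ccl22, Rnase2a, Mucl1, Sh2d1b1, Chn2 and Nov. For the ranking a count of 0 was set at 3 and counts of 1 or 2 were left as they were. Mgll, with 1 wound UMI, thus ranked above Ccl17 with 0, and the order near the floor is uncertain. The 10 with the lowest ratio were Hbb-bs, Cxcl1, Ptgs2, Hbb-bt, Ccl8, Hba-a1, Csf3, F13a1, Hba-a2 and Areg, of which 4 are haemoglobin genes.

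Within a single cluster, Arg1-rich cells carried more Slc7a2 and Nos2 than cells with 0 drawn Arg1 UMIs. In cluster 0 of Ndrg2-KO DCs, 864 Arg1-rich and 1758 such cells stood at 214 and 129 CPM of Slc7a2 and at 6.70 and 0.263 CPM of Nos2. Ass1 was at 338 and 357 CPM and Odc1 at 38.6 and 59.5 CPM. In wound cluster 4 with Ndrg2-KO DCs, 447 Arg1-rich and 62 such cells stood at 368 and 58.2 CPM of Slc7a2, 590 and 20.2 CPM of Nos2, and 116 and 28.0 CPM of Ass1.

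The order of Slc7a2 and Nos2 was the same in the other wound libraries. With control DCs (63 and 33 cells) Slc7a2 was at 309 and 124 CPM and Nos2 at 111 and 41.2 CPM. With blank hydrogels (197 and 75 cells) the values were 175 and 25.6 CPM for Slc7a2, and 181 and 21.0 CPM for Nos2. Median depth in these groups ranged from 10818 to 15218 UMIs per cell.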

How the data were processed

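The deposited matrices hold raw UMI counts per gene and cell, made by the authors with Cell Ranger (3.1.0 for cultures and 6.0.0 for wounds per the file headers). The labels list the build mm9 and the study's methods mm10; positions here are from GRCm38. A cell was kept when it showed 300 genes or more, held fewer than 100000 UMIs and had a mitochondrial share below 10%, which left 24051 cells of culture and 11032 of wounds. Counts were summed over cells and divided by the library's total. Ratios have exact conditional binomial 95% intervals, CPM exact Poisson and shares Clopper-Pearson intervals. With 1 library per condition nothing was tested. Shares with a UMI used 2000 UMIs drawn from each cell, and shallower cells were left out (102 to 1149 per library).

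Culture and wound cells were clustered apart with scanpy 1.11.5 (2000 variable genes without the members, 15 principal components, 15 neighbours, Louvain resolution 0.5) after scaling each cell to 10000 UMIs. A cluster was named by at least 3 markers at 50 CPM and 2-fold over the other cells, unless its leading genes went against the name. Scrublet called under 1% of cells, which does not show that doublets were rare. Doublets were kept, and leaving out the highest 6% of scores was an alternative. Named genes were the 7 members, the 3 pathway genes with the largest ratio per culture comparison, 10 genes at each end of the comparison of Arg1-rich cells, fixed lists by count and examples from them, and the 3 genes most like each member. Members and lists were chosen with earlier results of these data known. The ratio of summed counts and its interval were tested on simulated UMI sums.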

Additional observations from a re-analysis of the deposited data

Results flagged for a closer look

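The ratio of Odc1 between wounds with Ndrg2-KO DCs and wounds with control DCs pointed in opposite directions in different clusters. In cluster 2, neutrophil-like and led by Il23a and Ccl3, Odc1 was at 18.2 CPM (7 UMIs) with control DCs and at 249 CPM (744 UMIs) with Ndrg2-KO DCs, a log2 ratio of 3.78 (2.73 to 5.10). In cluster 6, macrophage-like with Cd209 family genes and Lyve1, it was at 558 and 422 CPM, a log2 ratio of -0.40 (-0.50 to -0.30). The difference between the 2 ratios was not tested, since each group is 1 library.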

How the results depend on the processing

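No paired analysis was possible because each condition is 1 library. Of 286 recomputed member ratios between libraries (41 ratios, up to 7 alternatives each), 249 moved by at most 0.25 on the log2 scale, 14 crossed the 2-fold limit and 2 changed sign, none of them past 2-fold before. The largest move was that of Nos2 in Ndrg2-KO against untreated DCs, to 8.04 below 5% mitochondrial UMIs. The same limit gave 8.22 for Arg1 in that comparison. Equal weight per cell gave 7.04 for Arg1, 3 members past 2-fold for wounds with Ndrg2-KO against control DCs, 1 for blank hydrogels against control DCs, and 2 for Ndrg2-KO DCs against blank hydrogels, and it moved the median of all genes to -0.47 in the first and -0.25 in the second of these comparisons. Median-ratio size factors also gave 2 for the last. The cause of these moves was not tested.

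The Arg1-rich share of Ndrg2-KO DCs was 24.8% at a limit of 2 UMIs, 2.35% at 10 and 15.3% with 2 of 1000 drawn UMIs. That of wound macrophage-like cells was 53.1% and 24.1% at limits of 2 and 10, 19.2% at resolution 1, 32.8% with 30 principal components, 25.8% with cluster 1 counted in, and 20.7%, 54.6% and 41.0% in the single wound libraries. The Slc7a2 ratio of Arg1-rich cells turned to 0.40 at resolution 1 and to 0.18 against blank hydrogels alone. The count of 4 members past 2-fold in Arg1-rich cells held under every alternative run. In macrophage-like cells, Ndrg2-KO against control DCs, the Arg1 ratio was 0.49 at resolution 1, 1.77 with 30 principal components and 1.75 without doublets, and the Nos2 ratio 0.23 at resolution 1. The alternatives by cell class and the one with cluster 1 were chosen after seeing the data. Depth limits Nos2 in culture, where 10 UMIs stood behind each of 2 libraries.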

Other observations

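Across 46 groups of at least 100 cells (a cluster in a library, 21 of culture and 25 of wounds, which share libraries and depth), the genes whose levels ran most like those of each member, by Pearson r of log2(CPM + 1) over 6391 genes, are given as a description. For Arg1 they were the collagenase gene Mmp13 (0.85), the acid phosphatase gene Acp5 (0.82) and Slc7a2 (0.77), and for Slc7a2 the fibronectin gene Fn1 (0.88), Cav2 (0.87) and the macrophage elastase gene Mmp12 (0.87). Arg1 and Slc7a2 gave 0.80 in culture groups and 0.86 in wound groups.

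For Arg2 they were Gpat3 (0.95), Mefv (0.94) and Il1b (0.93), for Ass1 Acot7 (0.95), 9130401M01Rik (0.90) and S100a4 (0.90), for Slc7a1 Golim4 (0.87), Eif4g1 (0.86) and Selenos (0.85), and for Odc1 Abcb1b (0.84), Ms4a6b (0.83) and Nup50 (0.83). Nos2 ran with the growth factor gene Ereg (0.89), the inducible cyclooxygenase gene Ptgs2 (0.84) and Inhba (0.84). Within the 21 culture groups the values for Ereg and Ptgs2 were -0.16 and -0.21, so that the likeness rests on the wound groups and on the gap between settings. For Odc1 and Abcb1b the culture value was 0.21, and for the other genes named, those of Nos2 aside, 0.54 to 0.94. Arg1 and Nos2 gave 0.46 over all groups, 0.84 in culture groups and 0.46 in wound groups. The culture value rests on Nos2 levels near the floor. Ndrg2-KO cells of cluster 0 stood at 2.66 CPM (199 UMIs) and those of cluster 3 at 2.59 CPM (1 UMI).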
